A study of Mus musculus with 4 samples.

Results

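The collagen genes were examined in lung tumours that carried an activatable oncogenic K-Ras allele, with or without a floxed Mll4 gene. Every gene row whose symbol has the form Col, a type number, the letter a and a chain number was taken, which gave 44 genes of the 24391 listed. The study sequenced RNA from 4 mouse lung tumour samples: 2 of genotype K-Ras LSL-G12D, called K-Ras here, and 2 of genotype K-Ras LSL-G12D;Mll4 fl/fl, labelled K-Ras Mll4-/-. Both groups share the K-Ras allele, a lox-stop-lox construct that encodes the G12D mutant once Cre has acted. Mll4, also called Kmt2d, encodes a methyltransferase of histone H3 that acts at enhancers. The Cre source, the age of the mice and the strain are not given in the sources used here. All tumours were dissociated with collagenase, DNase and trypsin, freed of red blood cells and depleted of cells bearing CD45, the leukocyte surface antigen, before the RNA was extracted. The remaining cells were not sorted further, so each sample mixes tumour cells with stromal cells. In such bulk samples, fewer cells of a type and less RNA per cell cannot be told apart. The labels do not say that the replicates came from separate mice, so p-values measure the spread between these samples, which may be technical.

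Collagens are secreted or membrane proteins built from chains that wind around each other into a helix. Fibrillar collagens such as types I, III and V form the tensile fibres of the interstitium and are made mainly by fibroblasts and related mesenchymal cells. Type IV forms the sheet-like network of basement membranes under epithelium and endothelium, with types XV and XVIII as proteoglycan collagens in or beside it. Other members form beaded filaments (type VI), attach to fibrils without forming them (the fibril-associated or FACIT types), span the plasma membrane, or anchor the basement membrane to the tissue below (type VII).

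Reads assigned to genes numbered 29096295 and 36677987 in K-Ras replicates 1 and 2, and 26683033 and 32887250 in K-Ras Mll4-/- replicates 1 and 2. Levels are given as CPM (counts scaled to a common library size), scaled between samples by the trimmed mean of M values, and sample values are listed in that order of replicates. On this scale 3 reads, used here as the floor of detection, were worth between 0.0830 and 0.114 CPM. Kmt2d, the gene targeted in the K-Ras Mll4-/- group, measured 395 and 526 CPM in the K-Ras samples and 367 and 317 CPM in the samples labelled K-Ras Mll4-/-. Its groups did not overlap, but the log2 difference of -0.43 (SE 0.21) did not pass the test (edgeR adjusted p = 0.302). With offsets for GC content and transcript length the difference was -0.064. Gene totals cannot show whether the deleted exons were lost, so they do not check the label. Directions below are therefore between samples as labelled.

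Collagen reads made up 1.13% and 0.885% of the gene reads in the K-Ras samples. In the K-Ras Mll4-/- samples they made up 0.866% (95% Wilson interval 0.863 to 0.870) and 0.783% (0.780 to 0.786). The K-Ras intervals were 1.128 to 1.136 and 0.882 to 0.888, and all these intervals cover counting error only. Both K-Ras samples lay above both K-Ras Mll4-/- samples, although K-Ras replicate 2 was nearer to the K-Ras Mll4-/- samples than to its own replicate.

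Levels of different genes were compared per kilobase of the longest annotated transcript. Col4a1 and Col4a2, the chains of the common type IV collagen, had the highest levels of the family in every group. In K-Ras tumours they reached 543 ± 13.6 and 415 ± 18.1 CPM per kb (mean ± SD, n = 2, as for all such values). Col3a1 (133 ± 72.3 CPM per kb), Col6a1 (90.4 ± 9.94), Col1a2 (81.4 ± 50.8) and Col1a1 (56.6 ± 37.1) followed. Col3a1 was above Col1a2, and Col1a2 above Col1a1, in every sample. Col6a1 changed place among them: Col3a1 exceeded it in K-Ras replicate 1 (184 against 83.4 CPM per kb) and lay below it in K-Ras replicate 2 (82.1 against 97.5). Col18a1 stood lower in K-Ras tumours, at 29.6 ± 2.16 CPM per kb, near Col6a2 at 26.5 ± 0.527 and Col6a3 at 25.5 ± 8.53. In K-Ras Mll4-/- tumours Col18a1 reached 181 ± 32.8 CPM per kb and came after only Col4a1 (455 ± 72.6) and Col4a2 (341 ± 41.5) in the family.

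**Figure D1:**
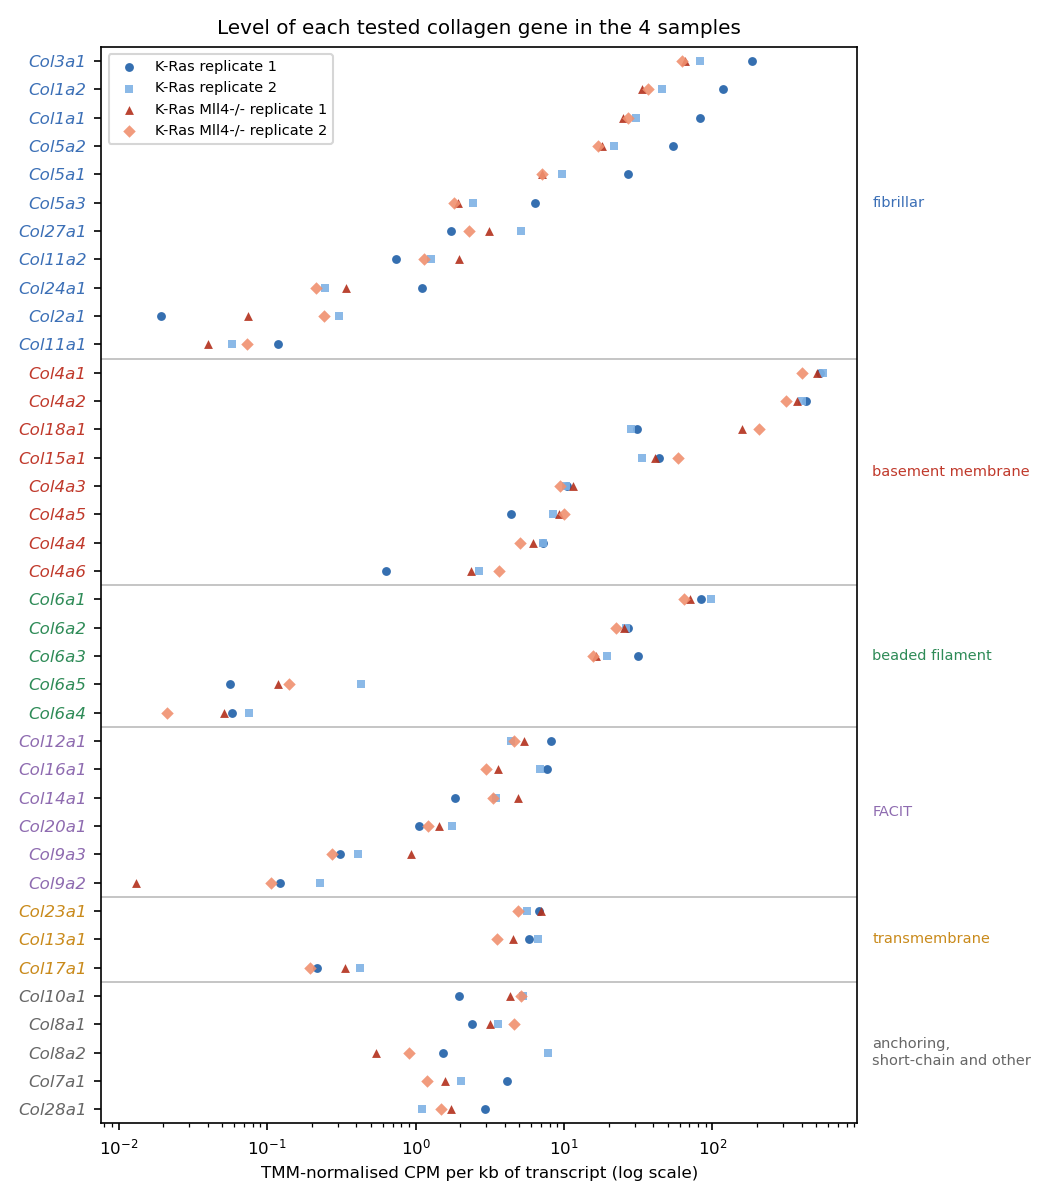
Level of each collagen gene in CPM per kilobase of transcript (log axis), 1 point per sample, coloured by group and ordered within classes by level. Col4a1 and Col4a2 lie highest in all 4 samples, and Col18a1 is the abundant gene whose groups lie farthest apart.

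RefSeq start regions are shown for the genes on which the comparison turns: the type IV pair, Col18a1 with both of its annotated starts, and a pair of fibrillar genes whose levels moved together across samples. Each runs 5′ to 3′ on the gene's strand from 250 bases before to 50 bases after the start (RefSeq, GRCm38.p6), whereas the submitters' processing notes name mm9 for the counts. Capitals mark matches on either strand to the CCAAT box (CCAAT), the TATA motif (TATAAA) and the GC box (GGGCGG). Matches to different motifs can share bases in principle but did not in the windows shown.
Col4a2 (chr8:11312555-11312854, + strand): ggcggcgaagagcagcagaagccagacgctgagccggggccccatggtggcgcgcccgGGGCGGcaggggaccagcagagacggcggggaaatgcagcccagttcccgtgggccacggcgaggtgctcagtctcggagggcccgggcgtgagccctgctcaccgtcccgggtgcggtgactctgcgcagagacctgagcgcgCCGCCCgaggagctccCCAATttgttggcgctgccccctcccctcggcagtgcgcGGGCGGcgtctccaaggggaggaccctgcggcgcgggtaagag
Col18a1, upstream start (chr10:77166481-77166780, - strand): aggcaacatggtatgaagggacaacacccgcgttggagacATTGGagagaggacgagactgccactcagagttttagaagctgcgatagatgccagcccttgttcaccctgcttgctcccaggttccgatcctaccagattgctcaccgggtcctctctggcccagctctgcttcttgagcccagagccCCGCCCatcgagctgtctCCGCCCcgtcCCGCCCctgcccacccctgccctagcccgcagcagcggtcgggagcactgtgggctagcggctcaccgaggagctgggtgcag
Col18a1, downstream start (chr10:77113656-77113955, - strand): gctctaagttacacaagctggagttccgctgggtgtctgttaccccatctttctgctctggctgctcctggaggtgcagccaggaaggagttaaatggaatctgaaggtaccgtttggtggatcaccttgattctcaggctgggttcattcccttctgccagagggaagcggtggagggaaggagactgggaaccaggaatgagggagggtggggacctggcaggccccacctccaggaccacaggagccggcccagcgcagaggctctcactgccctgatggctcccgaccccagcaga
Col1a2 (chr6:4505368-4505667, + strand): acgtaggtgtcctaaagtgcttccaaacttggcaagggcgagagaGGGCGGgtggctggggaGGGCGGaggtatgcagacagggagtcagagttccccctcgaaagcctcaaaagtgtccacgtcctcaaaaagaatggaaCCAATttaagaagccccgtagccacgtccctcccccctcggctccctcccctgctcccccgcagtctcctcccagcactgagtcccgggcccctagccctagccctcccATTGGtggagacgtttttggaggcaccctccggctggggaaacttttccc
Col3a1 (chr1:45311288-45311587, + strand): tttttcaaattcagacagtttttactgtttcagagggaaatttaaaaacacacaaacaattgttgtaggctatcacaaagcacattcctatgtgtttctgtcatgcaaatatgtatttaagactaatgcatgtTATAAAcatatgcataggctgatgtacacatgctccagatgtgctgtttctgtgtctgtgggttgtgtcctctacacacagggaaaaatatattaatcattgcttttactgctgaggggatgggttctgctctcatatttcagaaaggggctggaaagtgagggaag

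The Col4a2 window held 1 CCAAT and 3 GGGCGG matches. Col4a1 lies head to head with Col4a2 on the opposite strand, with starts 21 bases apart and 78 bases shared by the 2 windows. The annotated starts of Col18a1 lie 52825 bases apart. The upstream window held 1 CCAAT and 3 GGGCGG matches, and the downstream window held none of the 3 motifs. The deposited counts are per gene, so the transcripts from these starts were not separated. The Col1a2 window held 2 CCAAT and 2 GGGCGG matches, and that of Col3a1 held a single TATAAA, 117 bases before the start. Of the 44 collagen genes, 35 had a window, 38 windows in all. GGGCGG occurred in 60.5% of the collagen windows and in 35.7% of all 32851 windows. CCAAT (34.2% against 37.4%) and TATAAA (13.2% against 13.6%) occurred at nearly the shares of all windows. A match is a run of letters and not a binding site.

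The comparison of the genotypes asks which collagens differed when Mll4 was floxed in K-Ras tumours. Of the 44 collagen genes, 38 passed the filter on low counts and none passed the test at an adjusted p of 0.05 in either direction (edgeR quasi-likelihood test, Benjamini-Hochberg over 16001 genes). The same test called 6 genes in all, 0.0375% of those tested, and all 6 were higher in K-Ras Mll4-/-. DESeq2 called 4 collagens: Col18a1, higher in K-Ras Mll4-/-, and Col16a1, Col8a2 and Col5a1, lower. DESeq2 called 10.0% of all tested genes. The edgeR likelihood ratio test called 3 of those collagens, Col18a1, Col16a1 and Col8a2, and 1503 of all 16001 tested genes. With limma-voom 0 collagens and 0 genes in all were called. At an unadjusted edgeR p under 0.05 there were 6 collagens, 15.8% of those tested against 21.8% of all genes. Col18a1 was the only one of the 6 with a higher level in K-Ras Mll4-/- (background 11.4%), and Col16a1, Col13a1, Col8a2, Col7a1 and Col5a1 were lower (background 10.4%). This split was not stable: with offsets for GC content and transcript length there were 5 such collagens, 3 higher and 2 lower. The share of all genes under those offsets was not computed. The collagens were thus not called more often than other genes.

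Their direction was less even. The fitted difference lay below 0 for 28 of the 38 collagens (73.7%) and for 51.2% of all tested genes, with a median log2 difference of -0.34 against -0.01. For 18 collagens (47.4%) both K-Ras Mll4-/- samples lay below both K-Ras samples, which held for 28.5% of all genes. For 2, Col18a1 and Col4a5, both lay above, which held for 29.9% of all genes. In either direction the groups did not overlap for 20 collagens (52.6%) and 58.3% of all genes. Collagen transcripts were longer and richer in GC than others, with medians of 5989 bases and 55.9% GC against 3231 bases and 49.8%. With offsets for GC content and length, 22 of 38 (57.9%) lay below 0 and the median was -0.22, against 47.5% and 0.025 for all tested genes under the same offsets.

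**Figure D2:**
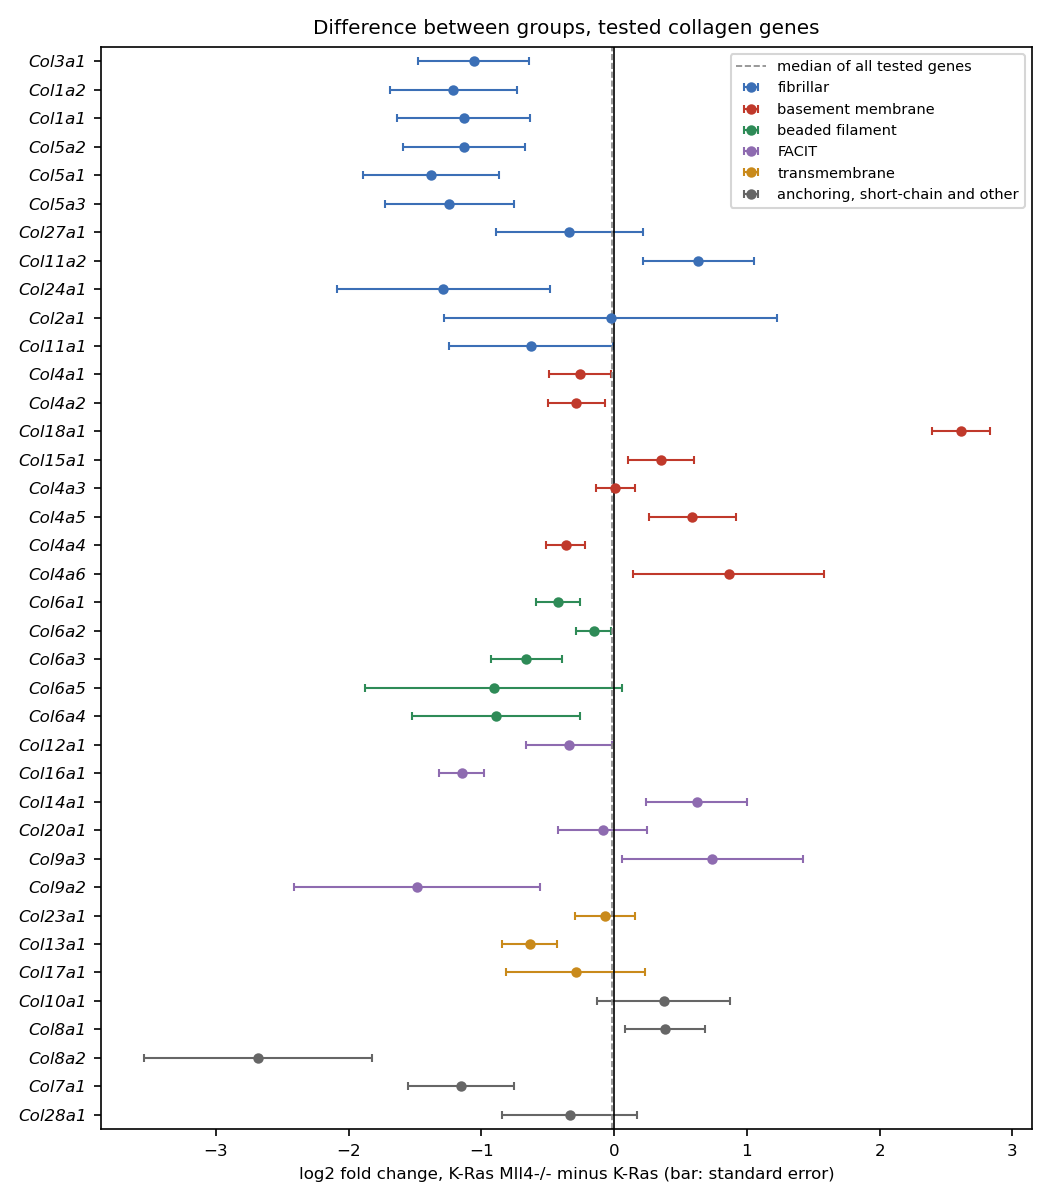
Fitted log2 difference (K-Ras Mll4-/- minus K-Ras, with standard error bars) for the 38 tested collagens, grouped by class. Of these, 28 lie to the left of 0, and Col18a1 stands at 2.61 on the right.

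Of the fibrillar collagens, 10 of 11 lay below 0 (8 of 11 with GC and length offsets), with a median of -1.13, and none passed the test. Without K-Ras replicate 1 the median was -0.36, with 9 of 11 below 0. Col3a1, the chain of type III collagen, measured 1025 and 457 CPM in K-Ras and 364 and 348 CPM in K-Ras Mll4-/-. Col1a2, a chain of type I collagen, measured 627 and 243 against 180.1 and 195 CPM. Col1a1, its partner chain, measured 491 and 180.1 against 147 and 159 CPM. In each of these the K-Ras Mll4-/- samples were close to each other, and K-Ras replicate 1 stood apart from the other 3. The type V chains, which help to start and size the fibrils, had the same order. Col5a2 measured 362 and 144 against 119 and 112 CPM, and Col5a1 228 and 80.9 against 59.6 and 59.4 CPM. Col5a3 was lower, at 39.2 and 14.998 against 11.8 and 11.1 CPM. All 6 had groups that did not overlap, with K-Ras Mll4-/- lower, which held for 28.5% of all tested genes.

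The log2 difference was -1.06 (SE 0.42, adjusted p = 0.244 by edgeR) for Col3a1, -1.21 (SE 0.48, adjusted p = 0.243) for Col1a2 and -1.13 (SE 0.50, adjusted p = 0.272) for Col1a1. It was -1.38 (SE 0.51, adjusted p = 0.229) for Col5a1, -1.13 (SE 0.46, adjusted p = 0.252) for Col5a2 and -1.24 (SE 0.49, adjusted p = 0.242) for Col5a3. The size rested on K-Ras replicate 1, which exceeded K-Ras replicate 2 by 2.25 to 2.82 times in these 6 genes. Without K-Ras replicate 1 the 6 differences ran from -0.44 to -0.23 (median -0.36), all still below 0, and without K-Ras replicate 2 their median was -1.72. Summed over the 6 chains, the samples measured 2773 and 1120 CPM in K-Ras and 882 and 885 CPM in K-Ras Mll4-/-.

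The other fibrillar genes were at low levels. Col27a1, a fibrillar type of cartilage and other tissues, measured 13.1 and 39.1 against 24.0 and 17.4 CPM, and the groups overlapped. Col24a1 (7.91 and 1.74 against 2.44 and 1.52 CPM) overlapped too. Col11a2 was the only fibrillar gene with a fitted value above 0, with 4.45 and 7.64 against 11.8 and 6.95 CPM. Col2a1 and Col11a1, typical of cartilage, stayed between 0.098 and 1.55 CPM and between 0.305 and 0.916 CPM.

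**Figure D3:**
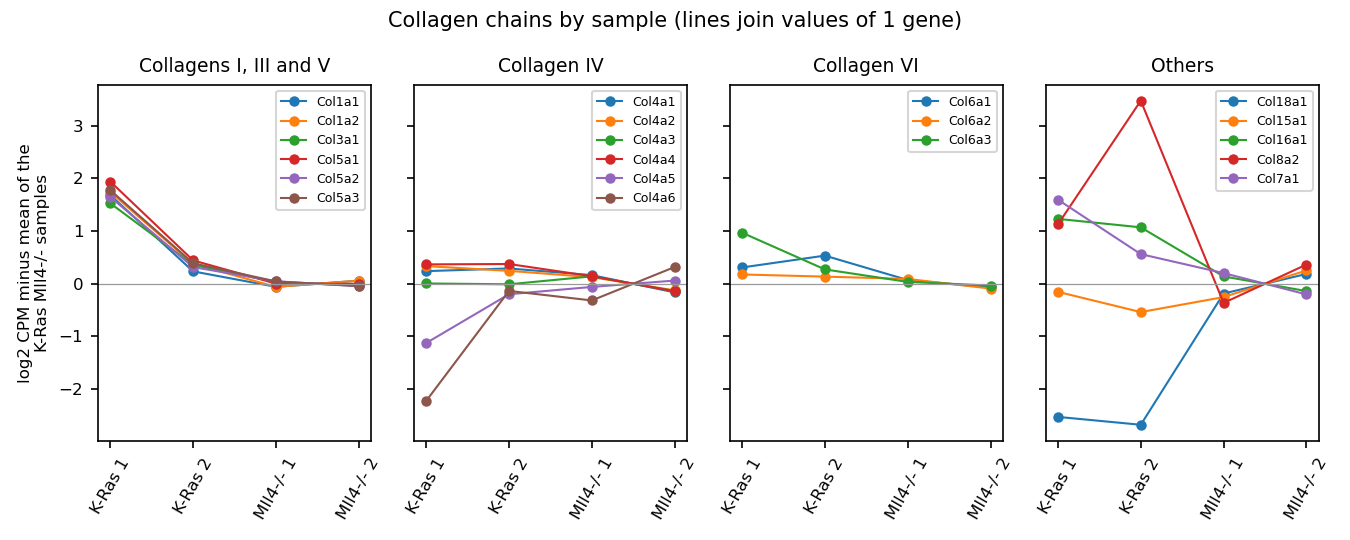
Level of 20 collagen genes in each of the 4 samples, as log2 CPM minus the mean of the K-Ras Mll4-/- samples, with lines joining the values of 1 gene and a panel per type. The I, III and V chains peak in K-Ras replicate 1 and lie close together in both K-Ras Mll4-/- samples, and Col18a1 is lower in both K-Ras samples.

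Basement membrane collagens did not share a direction: 5 of 8 lay above 0, with a median of 0.18, and none passed the test. The count above 0 was 4 of 8 with upper quartile scaling, library totals or DESeq2 size factors. With GC and length offsets it was 6 of 8, with a median of 0.35. Col18a1, which encodes the core of a heparan sulfate proteoglycan and carries endostatin at its carboxyl end, measured 174 and 157 CPM in K-Ras and 883 and 1143 CPM in K-Ras Mll4-/-. Both K-Ras Mll4-/- samples were far above both K-Ras samples, and replicates of each group were close. The fitted difference was 2.61 (SE 0.22), or 6.11-fold, with an unadjusted p of 1.11e-04 and an adjusted p of 0.0884 by edgeR, and 19 tested genes had a smaller p. Among other settings, the adjusted p passed the threshold in DESeq2 (5.71e-25), the edgeR likelihood ratio test (3.49e-19), without the count filter (0.0265) and without K-Ras replicate 1 (0.0377). It was 0.107 without K-Ras replicate 2, and 0.245 and 0.533 without K-Ras Mll4-/- replicates 1 and 2, while the log2 difference stayed between 2.41 and 2.79. Col18a1 reads were 1.62% and 1.75% of all collagen reads in K-Ras, and 10.0% (95% Wilson interval 9.91 to 10.2) and 14.3% (14.2 to 14.4) in K-Ras Mll4-/-.

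Col15a1, the close relative of Col18a1, did not separate the groups, with 227 and 174 against 212 and 301 CPM and a log2 difference of 0.36 (SE 0.25, edgeR adjusted p = 0.445). Col4a1 measured 3529.5 and 3656 against 3349 and 2669.5 CPM, and Col4a2 2760.3 and 2595 against 2387 and 2008 CPM. Both type IV genes were lower in each K-Ras Mll4-/- sample, but by little: -0.26 (SE 0.23, edgeR adjusted p = 0.550) and -0.28 (SE 0.21, edgeR adjusted p = 0.475). With GC and length offsets the difference for Col4a2 was 0.0061. Together they supplied 58.4% and 69.6% of collagen reads in K-Ras and 65.2% and 58.6% in K-Ras Mll4-/-.

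The other type IV chains form the networks of specialised basement membranes, such as those of alveoli and kidney glomeruli. Col4a3 measured 89.0 and 88.1 against 97.7 and 80.5 CPM, and Col4a4 73.1 and 73.4 against 62.5 and 51.3 CPM. Col4a4 had groups that did not overlap and a difference of -0.36 (SE 0.15, edgeR adjusted p = 0.244), and Col4a3 had a difference of 0.0089 (SE 0.15). Col4a5 measured 28.9 and 54.9 against 60.5 and 65.7 CPM, and its groups did not overlap (0.59, SE 0.33, edgeR adjusted p = 0.354). Col4a6 ranged from 4.19 to 24.4 CPM, and its groups overlapped.

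Of the type VI chains of beaded filaments, 5 of 6 were tested and all 5 lay below 0, with a median of -0.66 and none passing the test. With GC and length offsets 4 of 5 lay below 0, with a median of -0.46. Col6a1 measured 342 and 399.6 against 289.9 and 263 CPM, a difference of -0.42 (SE 0.17, edgeR adjusted p = 0.238). Col6a3 measured 318 and 196 against 167 and 159 CPM, a difference of -0.66 (SE 0.27, edgeR adjusted p = 0.246). Col6a2 differed little, at 132 and 128 against 124 and 109.6 CPM (-0.15, SE 0.13, edgeR adjusted p = 0.529). The groups of these 3 chains did not overlap, with K-Ras Mll4-/- lower, which held for 28.5% of all tested genes. For Col6a2 the difference was 0.014 with GC and length offsets. Col6a4 and Col6a5 stayed below 4 CPM in every sample.

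Among the FACIT collagens, 6 of 9 were tested and 4 lay below 0 (3 of 6 with GC and length offsets). Col16a1 measured 40.03 and 35.8 CPM in K-Ras and 18.8 and 15.5 CPM in K-Ras Mll4-/-. Its replicates were close within each group and its groups were well apart, with a log2 difference of -1.15 (SE 0.17, unadjusted p = 0.00141, edgeR adjusted p = 0.135). Leaving out any 1 sample kept the difference between -1.29 and -1.02, and with GC and length offsets it was -0.86. Col12a1, a fibril-associated collagen of dense matrix, measured 94.3 and 51.0 against 61.5 and 53.1 CPM, and Col14a1 11.9 and 22.5 against 31.4 and 21.6 CPM. Groups overlapped for both. Col20a1, Col9a2 and Col9a3 stayed below 9 CPM.

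Transmembrane collagens were few: 3 of 4 were tested and all lay below 0 (2 of 3 with GC and length offsets). Col13a1, a cell-surface collagen of adhesion sites, measured 18.5 and 21.1 against 14.4 and 11.1 CPM (-0.64, SE 0.21, unadjusted p = 0.0300, edgeR adjusted p = 0.199). With GC and length offsets its difference was -0.43. Col23a1 overlapped between the groups, at 38.4 and 31.8 against 39.4 and 27.7 CPM. Col17a1, the hemidesmosomal collagen of basal epithelial cells, stayed between 1.09 and 2.38 CPM.

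Among the anchoring, short-chain and remaining types, 5 of 6 were tested, 3 below and 2 above 0. Col7a1, the anchoring fibril collagen, measured 38.5 and 18.8 against 14.7 and 11.1 CPM (-1.15, SE 0.40, unadjusted p = 0.0389, edgeR adjusted p = 0.214). As for the fibrillar chains, K-Ras replicate 1 was highest, and without it the difference was -0.55. With GC and length offsets on all samples the Col7a1 difference was -0.86. Col8a2, a short-chain collagen, measured 6.64 and 33.8 against 2.36 and 3.91 CPM, so its difference of -2.68 (SE 0.86, unadjusted p = 0.0307, edgeR adjusted p = 0.200) rested mainly on K-Ras replicate 2. It was -1.09 without that sample. That sample also stood apart in the ciliated cell markers (806 CPM summed, against 80.0 to 145 in the other 3) and the club cell markers (3434 against 542 to 706), and their part in the Col8a2 value was not tested. Col8a1 overlapped, at 12.3 and 18.3 against 16.3 and 23.6 CPM. Col28a1 (4.70 to 12.5 CPM) and Col10a1 (6.18 to 16.7 CPM) overlapped as well. Col10a1 lies within the span of Nt5dc1 in the annotation, and Nt5dc1 measured 21.7 to 26.2 CPM. Whether counting used strand is not given in the sources used here, so reads of overlapping genes could be shared.

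The genes below the count filter were Col6a6, Col9a1, Col19a1, Col22a1, Col25a1 and Col26a1. Col25a1, a neuronal transmembrane collagen, had 5 and 62 reads in K-Ras and 2 and 3 in K-Ras Mll4-/-, so K-Ras replicate 2 again stood alone. Col22a1 had 14 and 11 against 3 and 2 reads, and Col26a1 6 and 13 against 3 and 0. The other 3 had between 0 and 8 reads in any sample, and none of the 6 was tested with this filter.

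The sample with the highest value differed between collagens. Of the 38 tested, 15 peaked in K-Ras replicate 1, 13 in K-Ras replicate 2, and 5 in each of the K-Ras Mll4-/- replicates. Across all tested genes the counts were 3952, 4693, 2722 and 4634. The genes that peaked in K-Ras replicate 1 included Col1a1, Col1a2, Col3a1, the type V chains, Col6a3, Col12a1 and Col7a1. Those that peaked in K-Ras replicate 2 included Col4a1, Col6a1, Col8a2 and Col13a1. The K-Ras samples thus differed from each other in which collagens were high.

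Ratios between chains that assemble into 1 protein show whether the chains varied together. Col1a1 to Col1a2 per kb was 0.707 and 0.668 in K-Ras and 0.736 and 0.735 in K-Ras Mll4-/-, although each chain varied more than 3-fold between samples. Col4a1 to Col4a2 was 1.25 and 1.37 against 1.37 and 1.30. The highest ratio was 1.10 times the lowest for both pairs. Col4a3 to Col4a4 was 1.44 and 1.42 in K-Ras against 1.85 and 1.85 in K-Ras Mll4-/-, and the 95% Poisson intervals of the 2 groups did not overlap. Those intervals cover counting error only, and with 2 samples a group the smallest two-sided exact permutation p is 0.333. Col4a3 and Col4a4 overlap in the annotation, so reads near their shared start could be affected by how overlaps were counted. Col4a5 to Col4a6 varied more, from 2.75 to 7.02. Col6a1 to Col6a3 ran from 2.65 in K-Ras replicate 1 to 5.01 in K-Ras replicate 2, and Col6a1 to Col6a2 from 2.79 to 3.73. Col18a1 and Col15a1 belong to different collagen types, so their ratio compares relatives and not chains of 1 protein. It was 0.709 and 0.834 in K-Ras and 3.85 and 3.504 in K-Ras Mll4-/-.

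**Figure D4:**
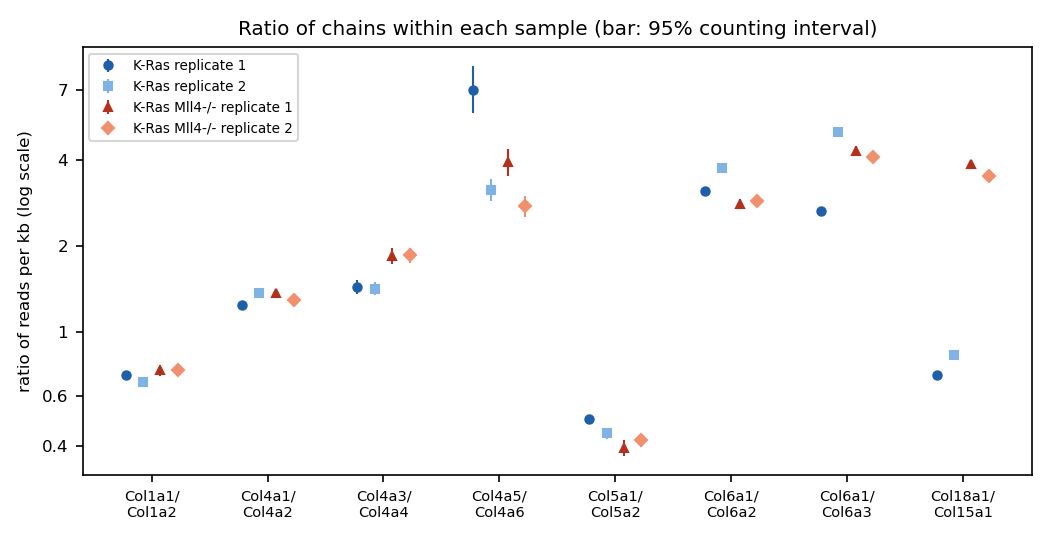
Ratio of CPM per kb between pairs of collagen chains in each of the 4 samples (log axis), with 95% Poisson intervals that cover counting error. The Col1a1 to Col1a2 and Col4a1 to Col4a2 ratios are close in all samples, and the Col4a3 to Col4a4 and Col18a1 to Col15a1 ratios separate the groups.

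Genes of the collagen pathway were described from 5 lists of 71 genes, of which 69 were tested. None passed the edgeR quasi-likelihood test, and 24 had an unadjusted p under 0.05: 7 higher and 17 lower, together 34.8% of the lists against 21.8% of all tested genes. DESeq2 called 13 (18.8% against 10.0%). The edgeR likelihood ratio test called 11 of the 69, against 1503 of all 16001 tested genes, and limma-voom called 0. The groups did not overlap for 42 of them (60.9%, against 58.3% of all tested genes). Their median log2 difference was -0.28, against -0.01 for all genes.

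The biosynthesis list, the enzymes and chaperones of the endoplasmic reticulum that modify and fold the chains, was split, with 10 of 20 above and 10 below 0 (median 0.07). P4hb, the disulfide isomerase subunit of prolyl 4-hydroxylase, measured 627 and 689 CPM in K-Ras against 1035 and 1217 CPM in K-Ras Mll4-/- (0.78, SE 0.19, edgeR adjusted p = 0.167). P4ha1, its catalytic subunit, measured 82.3 and 111 against 163 and 183 CPM (0.84, SE 0.19, edgeR adjusted p = 0.163). Ppib, a prolyl isomerase, measured 84.8 and 77.3 against 119 and 142 CPM (0.69, SE 0.15, edgeR adjusted p = 0.156). These 3 were higher in both K-Ras Mll4-/- samples without passing the test. P3h3, a prolyl 3-hydroxylase family member, and Colgalt2, a collagen galactosyltransferase, had values below 0 (-0.64 and -0.79).

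Genes that trim and cross-link collagen outside the cell lay below 0 more often: 11 of 12, with a median of -0.70. Of these, 7 had an unadjusted p under 0.05 (58.3% of the list, against 10.4% of all genes in that direction). Loxl1, a lysyl oxidase that cross-links collagen and elastin, measured 62.6 and 52.1 against 31.6 and 33.0 CPM (-0.83, SE 0.15, edgeR adjusted p = 0.147). Pcolce, which speeds the removal of the procollagen tail, measured 30.9 and 36.0 against 21.5 and 19.8 CPM (-0.70, SE 0.15, edgeR adjusted p = 0.157). Bmp1, the protease that removes that tail, measured 216 and 185 against 144 and 124 CPM (-0.58, SE 0.16, edgeR adjusted p = 0.177). Their replicates were close within each group, unlike those of the type I chains they act on. Loxl4 and Adamts14, another cross-linking oxidase and a protease of the procollagen amino end, measured -0.84 and -1.13.

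Of the proteins that bind collagen in the matrix, 9 of 13 lay below 0 (median -0.39). Dpt, the fibril-binding protein dermatopontin, measured 19.6 and 12.8 against 9.45 and 8.04 CPM (-0.89, SE 0.28, edgeR adjusted p = 0.192). Dcn, the proteoglycan decorin, measured 120.3 and 81.5 against 62.6 and 67.1 CPM (-0.64, SE 0.22, edgeR adjusted p = 0.214). Both also belong to the fibroblast markers.

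Basement membrane partners lay below 0 for 11 of 14 (median -0.14). Lamb3, the beta chain of laminin-332, measured 192 and 262 against 409 and 730.2 CPM (1.33, SE 0.35, edgeR adjusted p = 0.177). Lama3, its alpha chain, measured 118 and 141 against 96.0 and 90.7 CPM (-0.47, SE 0.14, edgeR adjusted p = 0.188). These laminin chains, which assemble into 1 protein, thus did not share a direction. Pxdn, peroxidasin, which forms the sulfilimine cross-links of type IV collagen, measured 248 and 280.1 against 152 and 134 CPM (-0.88, SE 0.15, edgeR adjusted p = 0.147), and Lama2 had -0.66 (SE 0.13).

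Collagen receptors were evenly split, with 5 of 10 above and 5 below 0 (median -0.14). Itga2, the alpha chain of an integrin that binds fibrillar collagen, measured 102 and 107 against 295 and 388 CPM (1.71, SE 0.19, edgeR adjusted p = 0.117). Mrc2, an endocytic collagen receptor of mesenchymal cells, measured 54.1 and 54.1 against 32.9 and 29.8 CPM (-0.79, SE 0.13, edgeR adjusted p = 0.144).

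**Figure D5:**
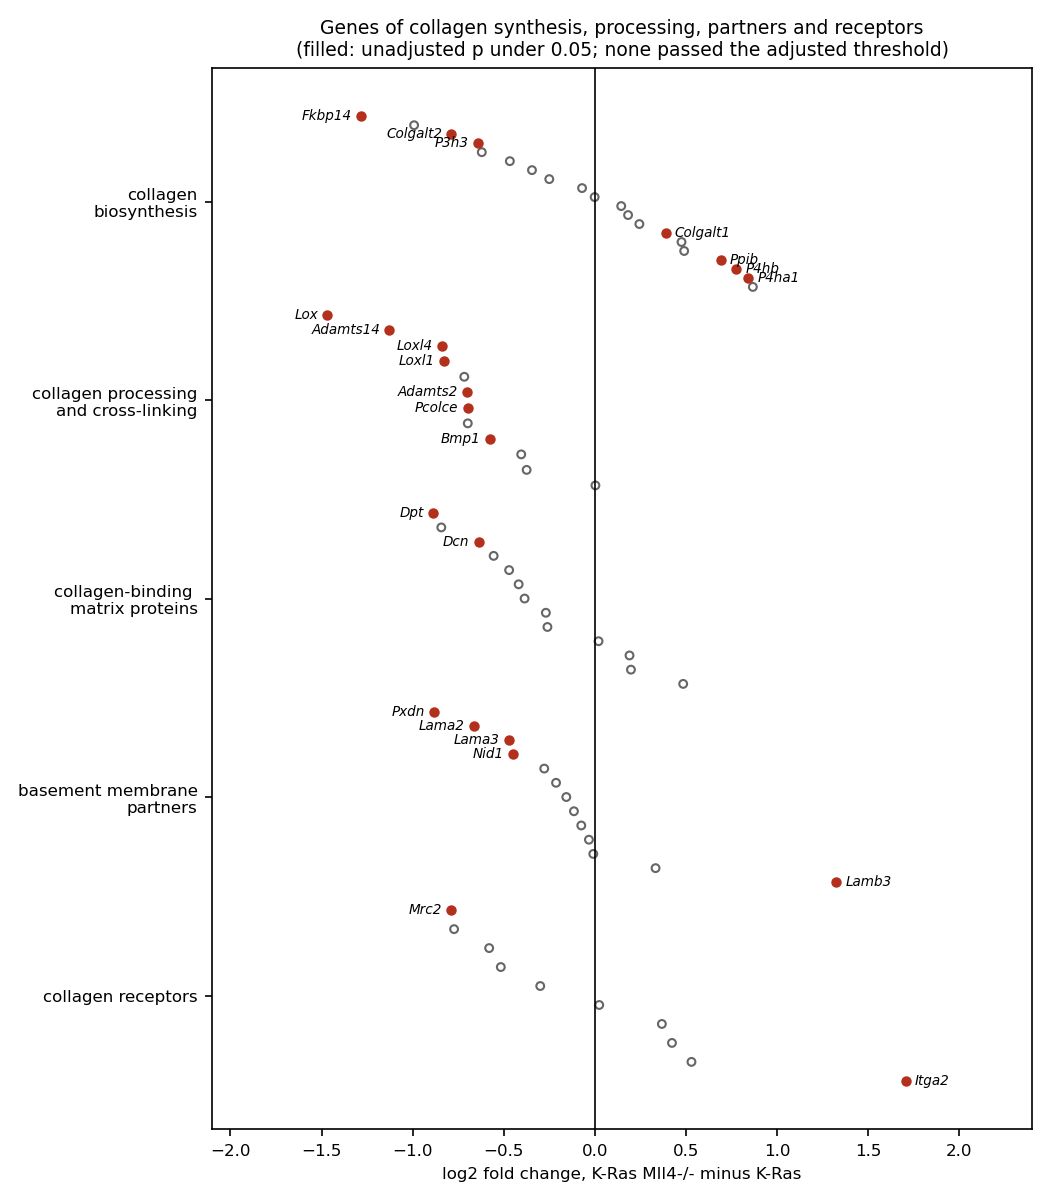
Fitted log2 difference (K-Ras Mll4-/- minus K-Ras) of tested genes of collagen synthesis, processing, binding partners and receptors, 1 point per gene. Filled points have an unadjusted p under 0.05, and 11 of the 12 processing and cross-linking genes lie to the left of 0.

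Markers of the cell types that the samples could hold moved with the groups too. Fibroblast markers summed to 670.0 and 680.3 CPM in K-Ras and 412 and 382 CPM in K-Ras Mll4-/-, and 9 of 10 were lower (median -0.64). Endothelial markers summed to 7895 and 7398 against 4859 and 3824 CPM, with 8 of 9 lower (median -0.77). Pericyte and smooth muscle markers summed to 327 and 256 against 245 and 212 CPM, with 7 of 9 lower. General epithelial markers summed to 817 and 1339 against 2806 and 2860.3 CPM, with all 5 fitted values above 0 (median 1.11). Krt8, Krt18 and Cdh1 made up most of that sum. Nkx2-1 differed little, at 45.7 and 62.7 against 47.8 and 64.9 CPM (0.056), and its groups overlapped. The part of these cell types in the collagen differences was not tested. Between the K-Ras samples the fibroblast markers did not move alike: Pdgfra (196 and 153 CPM), Dcn (120.3 and 81.5) and Dpt (19.6 and 12.8) were higher in replicate 1, as the fibrillar chains were, and Ces1d (75.9 and 164) and Npnt (149 and 176) were higher in replicate 2.

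Alveolar type 2 markers ranged from 17195 to 28706 CPM, with K-Ras replicate 1 lowest, and type 1 markers from 842 to 1491 CPM, higher in both K-Ras Mll4-/- samples. Of the type 1 markers 4 lay above 0, Cldn18 and Aqp5 carrying most of the sum, and 2 below, Hopx and Ager (340 and 448 against 211 and 157 CPM, edgeR adjusted p = 0.156). Both lists mark the alveolar epithelium of the labelled tissue, lung, and were present in every sample. All 6 ciliated and all 4 club markers lay below 0. Leukocyte markers summed to 654 and 250.1 against 538 and 310.5 CPM, with 4 of 6 below 0. The mesothelial list (21.8 and 22.7 against 124 and 224 CPM) was made almost wholly of Msln, and 3 of its 6 genes were tested. The chondrocyte list (5.27 and 5.78 against 43.8 and 50.4 CPM) was mostly Sox9, with Matn1 at 0 in all samples. Schwann cell markers summed to between 3.96 and 9.41 CPM. None of these markers passed the test.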

How the data were processed

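RNA was sequenced from 2 K-Ras and 2 K-Ras Mll4-/- lung tumour samples, and the titles gave the group and replicate number. The authors deposited raw read counts per gene, 1 table per sample of 24391 genes. Per the submitters' processing notes, CASAVA 1.4, STAR, HTSeq and the mm9 genome were used, and the strand setting is not given in the sources used here. Lines that name no gene were left out of library sizes and tests.

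Collagen members, classes, pathway lists and marker lists were chosen with earlier results of these data known, so no count over them is independent support. Counts were fitted in edgeR 4.0.16 (R 4.3.3) with the default count filter, trimmed mean of M values scaling and the robust quasi-likelihood test, adjusted by Benjamini-Hochberg over all 16001 genes tested, with 0.05 as the threshold. The standard error is the log2 difference divided by the square root of F. CPM per kb used the longest GENCODE M21 transcript, matched by symbol or RefSeq synonym for 24016 genes and all 44 collagens. Members given in every sample were those with groups apart and an unadjusted p under 0.05, the 3 with the highest mean CPM of each class, and Col1a1, Col1a2, Col3a1, Col4a1 and Col4a2, and other collagens are given by value or range. Of each pathway list at most 5 genes with groups apart and an unadjusted p under 0.05 were named, and 1 gene of these lists is counted but not reported here. Alternatives were other scalings and filters, a replicate block, GC and length offsets (mgcv 1.9.3), limma-voom (limma 3.58.1), DESeq2 1.42.0, the likelihood ratio test of edgeR, a fit that is not robust, and each sample left out in turn. The code of the fit was tested on counts simulated with the same spread for every gene. That does not show how the fit performs at the spread of these samples. Libraries of 26683033 to 36677987 gene reads made counting error small beside the spread between samples for abundant collagens.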

Additional observations from a re-analysis of the deposited data

How the results depend on the processing

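Signs and sizes below are log2 differences, K-Ras Mll4-/- minus K-Ras, and the cause of each change was not tested. Against 6 genes called among all tested, 44 were called without a count filter, 1601 by DESeq2, 1503 by the likelihood ratio test, 0 by limma-voom, and 0 to 528 with 1 sample left out (528 without K-Ras replicate 1). Collagens called numbered 1 without a count filter, 4 by DESeq2, 3 by the likelihood ratio test and 0 to 2 with 1 sample left out (2, Col18a1 and Col8a2, without K-Ras replicate 1). Collagens at an unadjusted p under 0.05 numbered 13 by DESeq2, 12 by the likelihood ratio test, 3 by limma-voom and 2 to 17 with 1 sample left out (9 and 17 without K-Ras replicates 1 and 2, 2 without either K-Ras Mll4-/- sample). The share of all genes at an unadjusted p under 0.05 was not computed for these settings. These collagen counts therefore cannot be set against all genes. The collagen median of -0.34 became -0.40 with upper quartile scaling, -0.41 with library totals and -0.22 with GC and length offsets. That median was -0.29 with limma-voom and -0.51 to -0.29 with 1 sample left out. Pathway genes called numbered 13 by DESeq2, 11 by the likelihood ratio test and 0 to 2 with 1 sample left out.

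The labels do not say what a shared replicate number stands for, and deviations of same-numbered samples correlated at 0.21 across 16001 genes, over 2 pairs only. With the replicate number as a block, 217 genes, 1 collagen (Col18a1, adjusted p = 0.0235 by edgeR) and 2 pathway genes were called, and the collagen median was -0.29. With this block 11 collagens had an unadjusted p under 0.05, and the share of all genes was again not computed. With the block and GC and length offsets together, 395 genes, 1 collagen and 3 pathway genes were called, and the median was -0.14. In that fit 6 collagens had an unadjusted p under 0.05, 4 higher and 2 lower, also without a computed share of all genes.

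Single collagens changed sign under some settings. With GC and length offsets these were Col20a1 (0.12), Col23a1 (0.10), Col27a1 (0.016), Col2a1 (0.40), Col4a2 (0.0061) and Col6a2 (0.014), and with the block added 0.14, 0.10, 0.14, 0.78, 0.014 and 0.016. Col2a1 also did with the block alone (0.42) and limma-voom (0.71). Col4a3 (0.0089) became -0.0017 with DESeq2, -0.0016 with its size factors, -0.050 with upper quartile scaling, -0.043 with library totals and -0.014 with a strict filter. With 1 sample left out in turn, the values of 12 collagens fell on both sides of 0: Col10a1 (-0.17 to 1.25), Col12a1 (-0.73 to 0.17), Col17a1 (-0.72 to 0.27), Col20a1 (-0.41 to 0.32), Col23a1 (-0.34 to 0.16), Col24a1 (-2.02 to 0.18), Col27a1 (-0.91 to 0.64), Col28a1 (-0.89 to 0.53), Col2a1 (-1.12 to 3.00), Col4a3 (-0.13 to 0.13), Col6a5 (-1.72 to 1.19) and Col9a3 (-0.38 to 1.37). With 1 sample left out, the lone sample of a group is assumed to vary like the other group.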
